A study of Mus musculus with 8 samples.

Results

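The genes that route choline into phosphatidylcholine and into methyl group metabolism were examined in mouse livers that had been fed a high-fat, choline-deficient (HFCD) diet. The set held 10 genes, listed by name with no threshold on their values, out of the 49585 genes counted. They were Chka, Chkb, Pcyt1a, Pemt, Chdh, Bhmt, Bhmt2, Gnmt, Mat1a and Ahcy, and all 10 passed the filter on low counts that left 16496 genes for testing.

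Hepatocytes use choline along competing routes. In the first, choline kinases phosphorylate it and Pcyt1a activates the product, which ends as phosphatidylcholine, the main phospholipid of membranes and of secreted lipoproteins. In the second, Chdh oxidizes choline to betaine, whose methyl group is used by Bhmt to remake methionine. Methionine is turned by Mat1a into S-adenosylmethionine, the methyl donor with which Pemt can build phosphatidylcholine without dietary choline and with which Gnmt methylates glycine, and Ahcy clears the S-adenosylhomocysteine that remains. Loss of choline or of these enzymes is a known way to fatty liver.

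RNA was sequenced from the livers of 8 males, which received HFCD for 3 months from 21 days of age. The 3 LP245/+ livers carried Alb-CreTG and Trp53wm-R245W/+, an allele that gives wild-type p53 until Cre switches it to p53R245W. The 2 LPfl/+ livers carried Alb-CreTG and Trp53fl/+, so that Cre deletes 1 allele. The 3 LP+/+ livers were labelled Alb-Cre0, with Trp53fl/+ in replicates 1 and 2 and Trp53wm-R245W/+ in replicate 3. Cre was under the albumin promoter, which restricts it to hepatocytes and bile duct cells, so the Trp53 alleles of immune, stellate and endothelial cells in the same tissue were not recombined. The labels conflict with the paper, whose results give this group the Alb-Cre transgene and unaltered Trp53 and whose methods name littermates with or without Cre as controls. If the labels hold, the presence of Cre and the altered Trp53 allele cannot be told apart in a comparison with LP+/+. No liver from regular chow was analysed here, so the values describe genotypes on HFCD and not the effect of the diet.

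Total counts were 28500707, 30331374 and 31370714 in LP+/+ replicates 1 to 3. They were 27741288 and 26345208 in LPfl/+ livers, and 26304526, 28310329 and 29846962 in LP245/+ livers. Detection was set at more than 3 counts, which every member had in every liver. Floors and depths cover counting error only. Nothing in the labels says more of the livers than that they are separate samples, and p-values measure the spread between these livers.

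The library numbers in the labels fell into 2 series. The first held the 3 LP245/+ livers with LP+/+ replicates 2 and 3, and the second held LP+/+ replicate 1 with both LPfl/+ livers. The first principal component of all genes tested, with 31.1% of the variance, separated these series. No series held both LP245/+ and LPfl/+, so their comparison and the series cannot be told apart.

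The labels were checked on Trp53 and on Cdkn1a, the p53 target that encodes p21. Trp53 had 226, 258 and 202 normalized read counts (counts divided by DESeq2 size factors) in LP+/+ livers, 127 and 178 in LPfl/+ livers and 316, 294 and 193 in LP245/+ livers. Cdkn1a had 188, 138 and 184 in LP+/+ livers, 75 and 100 in LPfl/+ livers and 14.5, 25.3 and 27.5 in LP245/+ livers. Trp53 lay lower in both LPfl/+ livers than in any LP+/+ liver, and Cdkn1a lay lowest in LP245/+ livers. The markers listed for hepatocytes were all detected, 10 of 10, with Alb the most abundant.

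Together the 10 genes took 0.812, 0.93 and 0.819% of all counts in LP+/+ livers, 0.695 and 0.681% in LPfl/+ livers and 0.764, 0.77 and 0.741% in LP245/+ livers. Levels were compared between genes per length of exon, scaled to the same sum in each liver. On that scale Gnmt had the highest median level over the 8 livers, 2610, at rank 41 of all genes in the table. Mat1a followed with 2030, Bhmt with 855 and Ahcy with 336. Bhmt2 and Pemt had neighbouring levels with overlapping ranges, with medians of 205 and 194. Chdh had 65.3, Pcyt1a 31.4, Chkb 16.8 and Chka 10.8, at rank 5175. The ranges over livers overlapped between Gnmt and Mat1a and between Chkb and Chka. The methionine cycle enzymes were the most abundant members per length and the choline kinases the least abundant.

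Several members share sequence with other genes, which bears on how far their counts can be assigned. Of the distinct stretches of 76 bases, the read length, in their transcripts, 65.8% of Ahcy, 39.6% of Chkb and 20.8% of Bhmt occurred in transcripts of other genes. For Ahcy these were mainly Gm4737 on chromosome 16, with 187 to 284 counts per liver. For Bhmt, 1171 of the 1199 shared stretches occurred in Gm5096, a protein-coding gene with 230 to 658 counts, and 620 in Bhmt-ps1, a processed pseudogene on chromosome 4 with 34 to 85 counts. Both genes had their highest count in LP+/+ replicate 1. The share was 1.13% for Bhmt2 and 0.403% for Chka, and the other 5 members shared no stretch.

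Bhmt and Bhmt2 are neighbours on the minus strand of chromosome 13 in GRCm38, 17758 bases apart. Bhmt lies from 93616675 to 93637961 and Bhmt2 from 93655720 to 93674302. Bhmt2 uses S-methylmethionine in place of betaine. The stretch of their coding sequences that is most alike is printed here because it shows how far reads of the neighbouring genes can be told apart. It lies in coding exon 7 of either gene, at chr13:93620191-93620266 for Bhmt and chr13:93662411-93662486 for Bhmt2. Both are written 5′ to 3′ along the transcript, with capitals at the positions where they differ.
Bhmt: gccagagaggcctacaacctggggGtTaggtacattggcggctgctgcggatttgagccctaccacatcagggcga
Bhmt2: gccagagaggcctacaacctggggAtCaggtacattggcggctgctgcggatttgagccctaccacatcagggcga
The stretches matched at 74 of 76 bases (97.4%), and no stretch of 76 bases was identical between the genes.

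Among the 3 comparisons of genotypes, 0 of the 10 members passed the cutoff, which asked for a log2 fold change of 1 or more in either direction and for an adjusted p of at most 0.05 in edgeR's quasi-likelihood test. Over all genes tested the cutoff was passed by 0.00606% in LP245/+ compared with LP+/+, by 0.0% in LPfl/+ compared with LP+/+ and by 0.0% in LP245/+ compared with LPfl/+. DESeq2 also placed 0 of the 10 members past the cutoff, beside 0.0607%, 0.0547% and 0.328% of the genes it tested. At an unadjusted p below 0.05 in edgeR there were 1, 2 and 2 members in the same order, beside 5.93%, 6.89% and 8.51% of all genes tested. In LP245/+ livers this was Bhmt, lower than in LP+/+ as were 2.38% of all genes, and 0 members were higher, beside 3.55%. For LPfl/+ these were Gnmt and Mat1a, lower than in LP+/+ as were 2.67% of all genes, and 0 members were higher, beside 4.22%. Between the altered genotypes Gnmt was higher in LP245/+ than in LPfl/+, as were 4.07% of all genes, and Chka lower, as were 4.44%. In the test for any difference among the 3 genotypes, 0 members and 0.0% of all genes passed an adjusted p of 0.05, and Bhmt had the smallest p of the members (adjusted p = 0.614 from edgeR). At an unadjusted p below 0.05 that test held Bhmt alone of the members, beside 7.79% of all genes.

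**Figure D1:**
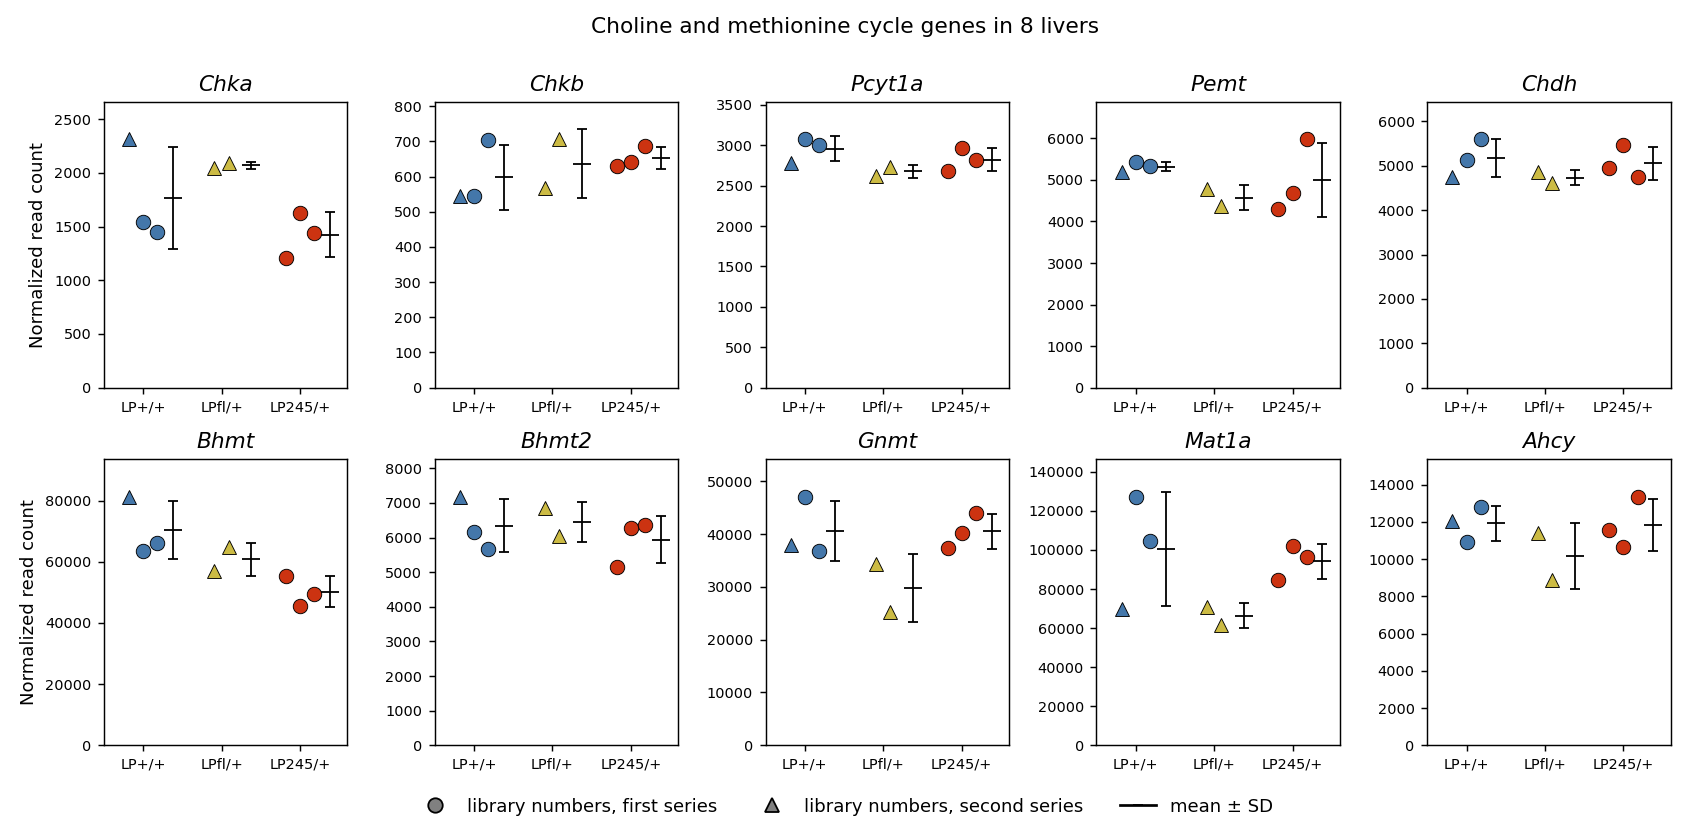
Normalized read counts (vertical axes, from 0) of the 10 genes in each liver, by genotype. Circles are livers of the first series of library numbers and triangles of the second, and the bars give the mean ± SD of each genotype. The 3 LP245/+ livers lie below all others for Bhmt, and the triangles lie above every circle for Chka and below every circle for Mat1a.

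Bhmt, betaine-homocysteine methyltransferase, was the member with the largest difference between LP245/+ and LP+/+ livers. It had 81314, 63666 and 66135 normalized read counts in LP+/+ replicates 1, 2 and 3, 57052 and 64683 in LPfl/+ livers and 55476, 45523 and 49508 in LP245/+ livers. All 3 LP245/+ livers lay below every LP+/+ and LPfl/+ liver, while LPfl/+ and LP+/+ overlapped. Mean levels came to 70371 ± 9557 (SD, n = 3) for LP+/+, 60867 ± 5396 (SD, n = 2) for LPfl/+ and 50169 ± 5009 (SD, n = 3) for LP245/+. Against LP+/+ livers the log2 fold change of LP245/+ livers was -0.48 (standard error 0.14, 95% interval -0.79 to -0.17), which did not pass the adjustment (adjusted p = 0.795 from edgeR). The exact permutation test over livers gave p = 0.1 (2-sided), the smallest that 3 against 3 livers allow. LP245/+ livers lay wholly below LP+/+ in 1 member, and in 5.09% of all genes tested. Levels below every liver of both other genotypes were found in 1 member and in 2.23% of all genes.

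In livers of the first series, mean Bhmt levels of LP245/+ and LP+/+ had a log2 ratio of -0.37. Over all livers the log2 fold change of LPfl/+ against LP+/+ was -0.2 (95% interval -0.55 to 0.15, adjusted p = 0.815 from edgeR). It was -0.08 without LP+/+ replicate 1, -0.12 without LPfl/+ replicate 1 and -0.31 without LPfl/+ replicate 2. In the second series the log2 ratio of LPfl/+ to LP+/+ was -0.42, against 1 LP+/+ liver. Replicate 1 of LP+/+, the highest liver, was the only LP+/+ liver of its series, and without it the log2 fold change in LP245/+ was -0.36. Against LPfl/+, the log2 fold change of Bhmt in LP245/+ was -0.28 (standard error 0.15, 95% interval -0.62 to 0.07, adjusted p = 0.67 from edgeR), and -0.18 without LPfl/+ replicate 2. With LP+/+ as step 1, LPfl/+ as step 2 and LP245/+ as step 3, Bhmt had a slope of -10101 normalized read counts per step with an R² of 0.7. It was the only member with a slope past 1 and an R² above 0.6, which 1.35% of all genes passed going down and 1.44% going up. On the genotype averages Chkb passed as well, with library totals 0 members passed, and without LP245/+ replicate 3 Pemt passed as well.

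Reads of Bhmt could also come from Gm15622, an antisense gene that overlaps it by 3252 bases and had at most 443 counts. Tissue makeup was read from the markers beside this result, and in bulk liver fewer cells of a type and less RNA per cell cannot be told apart. The summed normalized counts of the hepatocyte markers were 3572572, 4359634 and 4887890 in LP+/+ livers, 3736439 and 3471625 in LPfl/+ livers and 3602142, 4184920 and 4078871 in LP245/+ livers. These sums overlapped between LP245/+ and LP+/+ livers, and replicate 1 of LP+/+, with the highest Bhmt, had the lowest sum of its group. Markers of kidney, an organ that also oxidizes choline, were at or under 3 counts in every liver for 4 of 4 genes, with Umod and Slc12a1 among those at 0. Of the adipose markers 1 of 4 exceeded 3 counts, Cidea, a lipid droplet protein, and Lep was at 0. The adipose sums were 1, 5 and 4 in LP+/+ livers, 4 and 6 in LPfl/+ livers and 22, 14 and 12 in LP245/+ livers, highest in LP245/+. Of these sums Cidea alone gave 20.7, 14.1 and 11.2 in LP245/+ livers, and the other 3 markers were at or under 3 counts. The log2 fold change of Cidea in LP245/+ compared with LP+/+ was 2.38 (adjusted p = 0.795 from edgeR). It lay wholly higher in LP245/+ than in LP+/+, as did 6.47% of all genes tested. Kupffer cell and macrophage markers, 8 of 8 detected and led by Clec4f, summed to 7736, 9305 and 8019 in LP+/+ livers, 10929 and 7910 in LPfl/+ livers and 6704, 7806 and 7762 in LP245/+ livers. The sums of LP+/+ and LP245/+ overlapped. Of the 8 genes 1, Vsig4, was lower in all LP245/+ livers (785, 936 and 939) than in any other liver (967 or more), as were 2.23% of all genes tested. Of the 5 red blood cell markers, Hba-a2 was lower in all LP245/+ livers (757, 319 and 657) than in any LP+/+ liver (767 or more). This held for 5.09% of all genes tested. Log2 fold changes in LP245/+ compared with LP+/+ were -0.54 for Hba-a2, -0.57 for Hba-a1, -0.34 for Hbb-bs, -0.19 for Hbb-bt and 0.09 for Alas2. Their adjusted p-values were 0.831 or more from edgeR. The part of these markers in the Bhmt result was not tested.

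Bhmt2 did not share the pattern of its neighbour. It had 7185, 6165 and 5675 normalized read counts in LP+/+ livers, 6855 and 6046 in LPfl/+ livers and 5154, 6285 and 6360 in LP245/+ livers. The 3 genotypes overlapped, and the log2 fold change of LP245/+ against LP+/+ was -0.09 (95% interval -0.38 to 0.21). Per length, Bhmt exceeded Bhmt2 by 4.85, 4.42 and 4.99 times in LP+/+ livers, 3.57 and 4.58 times in LPfl/+ livers and 4.61, 3.1 and 3.34 times in LP245/+ livers. The ratio in LP245/+ replicate 1 lay within the range of LP+/+, so the genotypes overlapped in this ratio. Against Mtr, the methionine synthase that remakes methionine from methylfolate, the ratio per length for Bhmt was 276, 219 and 233 in LP+/+ livers, 198 and 254 in LPfl/+ livers and 196, 148 and 171 in LP245/+ livers. The LP245/+ ratios were all below those of LP+/+ and of LPfl/+.

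Chdh, the choline dehydrogenase that supplies betaine, differed little between genotypes. It had 4753, 5139 and 5608 normalized read counts in LP+/+ livers, 4852 and 4619 in LPfl/+ livers and 4955, 5466 and 4748 in LP245/+ livers. The genotypes overlapped in every comparison, and the log2 fold change of LP245/+ against LP+/+ was -0.02 (95% interval -0.26 to 0.22). Part of Chdh, 589 bases, is overlapped on the other strand by Cacna1d, which had at most 208 counts.

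Mat1a, which makes S-adenosylmethionine in adult liver, varied most among the members, with the highest liver 2.06 times the lowest. It had 69596, 127378 and 104351 normalized read counts in LP+/+ livers, 70853 and 61797 in LPfl/+ livers and 84388, 102147 and 96268 in LP245/+ livers. The LP+/+ livers split, with replicate 1 at the level of LPfl/+ replicate 1 and replicates 2 and 3 above every LP245/+ liver. In LPfl/+ compared with LP+/+ the log2 fold change was -0.59 (standard error 0.23, 95% interval -1.1 to -0.08, adjusted p = 0.704 from edgeR), and the groups overlapped. All livers of the second series, 61797 to 70853, lay below those of the first, 84388 to 127378. Within the second series the log2 ratio of LPfl/+ to LP+/+ was -0.07, and within the first that of LP245/+ to LP+/+ was -0.3. With the series as a covariate the log2 fold change in LPfl/+ compared with LP+/+ was -0.06.

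Mat2a, the form of the enzyme found outside hepatocytes and in growing liver, was much lower in level than Mat1a. It had 1811, 1780 and 1729 normalized read counts in LP+/+ livers, 2171 and 1903 in LPfl/+ livers and 1962, 1874 and 1925 in LP245/+ livers. Both altered genotypes lay above every LP+/+ liver, as did 6.47% of all genes for LP245/+ and 12.5% for LPfl/+. The log2 fold changes of Mat2a were 0.13 (standard error 0.09) for LP245/+ and 0.21 (standard error 0.1) for LPfl/+, with adjusted p-values of 0.846 and 0.736 from edgeR. Per length, Mat1a exceeded Mat2a by 42.0 times in LPfl/+ replicate 2 at the lowest and by 92.6 times in LP+/+ replicate 2 at the highest.

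Gnmt, glycine N-methyltransferase, which disposes of surplus S-adenosylmethionine, was lowest in LPfl/+ livers. It had 37874, 47141 and 36762 normalized read counts in LP+/+ livers, 34425 and 25181 in LPfl/+ livers and 37346, 40312 and 44031 in LP245/+ livers. Both LPfl/+ livers lay below all 6 others, and the LP+/+ and LP245/+ livers overlapped. The log2 fold change in LPfl/+ compared with LP+/+ was -0.44 (standard error 0.17, 95% interval -0.83 to -0.05, adjusted p = 0.704 from edgeR). Against LPfl/+, LP245/+ livers had a value of 0.45 (standard error 0.17, adjusted p = 0.533 from edgeR). Against LP+/+ the value for LP245/+ was 0.01 (95% interval -0.33 to 0.35).

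The size of the Gnmt difference depended on the LPfl/+ liver used. Its log2 fold change against LP+/+ was -0.24 without LPfl/+ replicate 2 and -0.69 without LPfl/+ replicate 1. That of LP245/+ against LPfl/+ was 0.24 and 0.69 in the same order. Replicate 2 was also the lowest of the 8 for Chdh, Mat1a and Ahcy and for 3 of the 10 hepatocyte markers, Tat, Cps1 and Serpinc1, while the other 7 markers were lowest in other livers. Of these Hnf4a, a transcription factor of hepatocytes, had 15267 and 15454 normalized read counts in LPfl/+ livers, below all 6 others at 15844 or more. Of all genes tested, 12.4% lay wholly lower in LPfl/+ than in LP+/+. The sums of the hepatocyte markers overlapped between LPfl/+ livers, 3736439 and 3471625, and LP+/+ livers, 3572572 or more. Tat, an enzyme of tyrosine breakdown, had its highest value in LPfl/+ replicate 1, 57789 normalized read counts. In LPfl/+ replicate 2 it had 18959, against 38443 or more in the other livers. Cps1, the entry enzyme of the urea cycle, had 95369 in that liver against 140615 or more. Red blood cell markers, 5 of 5 detected and led by Hbb-bs, summed to 18469, 19463 and 13910 normalized read counts in LP+/+ livers, 9774 and 12719 in LPfl/+ livers and 15477, 9113 and 18309 in LP245/+ livers. Both LPfl/+ sums lay below those of LP+/+, and the LP245/+ livers spanned them. Endothelial markers, 6 of 6 detected and led by Stab2, summed to 9969, 11956 and 12926 in LP+/+ livers, 8102 and 10699 in LPfl/+ livers and 12193, 12067 and 11190 in LP245/+ livers. The endothelial sums of LPfl/+ and LP+/+ overlapped. Of the 6 genes 2, Kdr and Cdh5, were lower in both LPfl/+ livers than in any LP+/+ liver, as were 12.4% of all genes tested. The part of these differences in the Gnmt result was not tested.

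Ahcy, which removes S-adenosylhomocysteine, had 12032, 10937 and 12821 normalized read counts in LP+/+ livers, 11419 and 8894 in LPfl/+ livers and 11551, 10636 and 13367 in LP245/+ livers. The genotypes overlapped. The log2 fold change was 0.00 in LP245/+ (95% interval -0.31 to 0.31) and -0.22 in LPfl/+ (95% interval -0.57 to 0.12) compared with LP+/+. The value for LPfl/+ was -0.43 without LPfl/+ replicate 1 and -0.07 without LPfl/+ replicate 2. Because most of its sequence also occurs in other genes, its counts are uncertain.

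**Figure D2:**
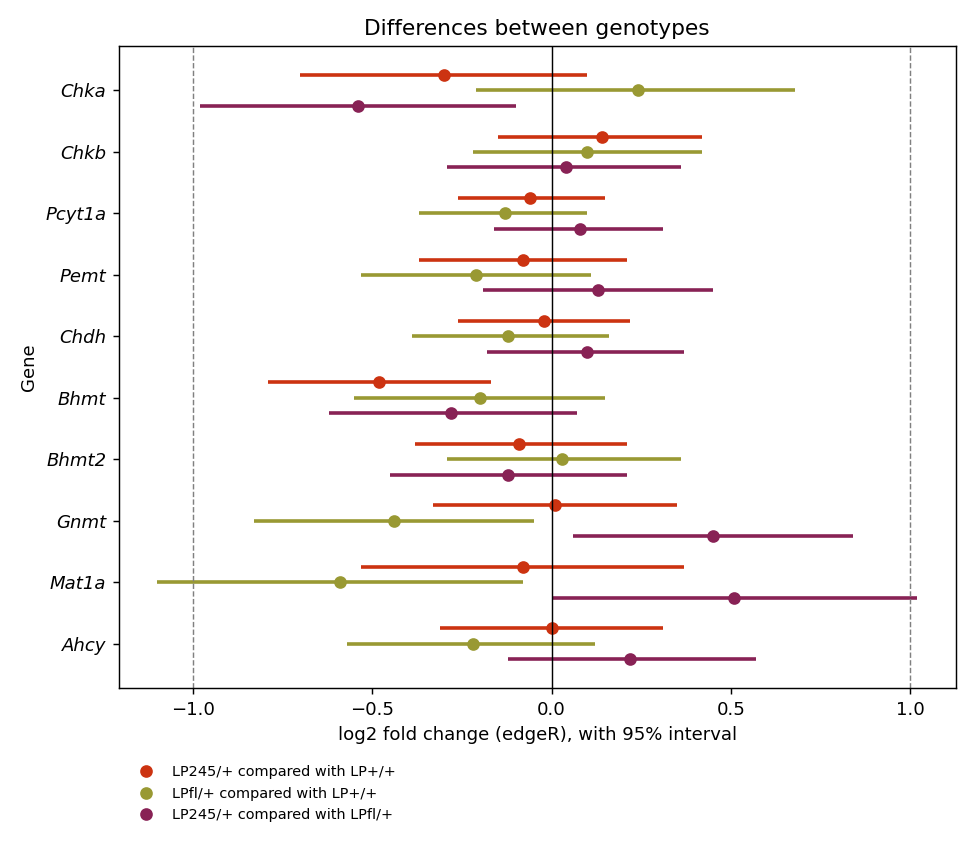
Log2 fold changes from edgeR (horizontal axis) of the 10 genes in the 3 comparisons of genotypes, with 95% intervals as lines and dashed lines at a log2 of 1 in either direction, the fold part of the cutoff. The intervals leave out 0 for Bhmt in LP245/+ compared with LP+/+, for Gnmt and Mat1a in LPfl/+ compared with LP+/+, and for Chka and Gnmt in LP245/+ compared with LPfl/+.

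Of the choline kinases, Chka separated the series of library numbers. It had 2316, 1540 and 1445 normalized read counts in LP+/+ livers, 2048 and 2094 in LPfl/+ livers and 1206, 1629 and 1438 in LP245/+ livers. All livers of the second series, 2048 to 2316, lay above those of the first, 1206 to 1629, with a ratio of the means of 1.48. Among all genes tested 5.08% were wholly higher and 4.55% wholly lower in the second series, and among the members 1 was higher, Chka, and 1 lower, Mat1a.

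Between LP245/+ and LPfl/+ livers, the log2 fold change of Chka was -0.54 (standard error 0.2, 95% interval -0.98 to -0.1, adjusted p = 0.51 from edgeR), and here the genotypes coincide with the series. Against LP+/+ livers, the fitted log2 difference of LP245/+ livers was -0.3 (standard error 0.18) and that of LPfl/+ livers 0.24 (standard error 0.2), with adjusted p-values of 0.839 and 0.826 from edgeR. Inside a series, the log2 ratio to LP+/+ was -0.07 for LP245/+ and -0.16 for LPfl/+. Without LP+/+ replicate 1 the value for LP245/+ was -0.05 and that for LPfl/+ 0.48, and without LP+/+ replicates 2 or 3 that for LPfl/+ was 0.14 or 0.1.

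Chkb, the choline kinase with the muscle phenotype in mice, had 545, 546 and 705 normalized read counts in LP+/+ livers, 566 and 707 in LPfl/+ livers and 630, 640 and 688 in LP245/+ livers. The genotypes overlapped, and the log2 fold change of LP245/+ against LP+/+ was 0.14 (95% interval -0.15 to 0.42). Per length, Chka exceeded Chkb in 1 liver, LP+/+ replicate 1, with a ratio of 1.08, and the lowest ratio was 0.487 in LP245/+ replicate 1. A share of 39.6% of the Chkb sequence, 1486 stretches, occurs in transcripts of other genes. Of these other genes only Trim24 and Trim26, with 6 stretches each, were found among the genes counted. How far the sharing affects the Chkb counts was not tested, so its level is uncertain.

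Pcyt1a, which catalyses the step that sets the rate of the choline route, was the steadiest member, with the highest liver 1.18 times the lowest in normalized read counts. Before normalization it had 2878, 3205 and 3190 counts in LP+/+ livers, 2582 and 2708 in LPfl/+ livers and 2591, 2933 and 2764 in LP245/+ livers. Normalized read counts were 2954 ± 155 (SD, n = 3) for LP+/+, 2675 ± 83.7 (SD, n = 2) for LPfl/+ and 2818 ± 143 (SD, n = 3) for LP245/+. On either scale the LPfl/+ livers lay below all LP+/+ livers, with a log2 fold change of -0.13 (95% interval -0.37 to 0.1, adjusted p = 0.815 from edgeR). For LP245/+ against LP+/+ it was -0.06 (95% interval -0.26 to 0.15), the narrowest interval of the members in that comparison.

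Pemt, the liver enzyme that makes phosphatidylcholine by methylation, had 5201, 5424 and 5346 normalized read counts in LP+/+ livers, 4787 and 4367 in LPfl/+ livers and 4310, 4698 and 5989 in LP245/+ livers. The LP245/+ livers held both the lowest and the highest value of the 8, with an SD of 879 against 113 in LP+/+. Both LPfl/+ livers lay below every LP+/+ liver (log2 fold change -0.21, 95% interval -0.53 to 0.11, adjusted p = 0.797 from edgeR). Wholly lower levels in LPfl/+ than in LP+/+ were found in 3 members, Pcyt1a, Pemt and Gnmt, and in 12.4% of all genes tested. Per length, the ratio of Pemt to Pcyt1a was 6.59, 6.21 and 6.27 in LP+/+ livers, 6.45 and 5.63 in LPfl/+ livers and 5.67, 5.59 and 7.5 in LP245/+ livers, so Pemt exceeded Pcyt1a in every liver and the genotypes overlapped.

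Between LP245/+ and LPfl/+ livers, Gnmt and Mat1a were wholly higher in LP245/+, beside 12.1% of all genes, and Chka and Bhmt wholly lower, beside 13.3% of all genes. The log2 fold change of Mat1a in that comparison was 0.51 (standard error 0.23, adjusted p = 0.583 from edgeR). All 4 differences run between the series of library numbers as well as between the genotypes.

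**Figure D3:**
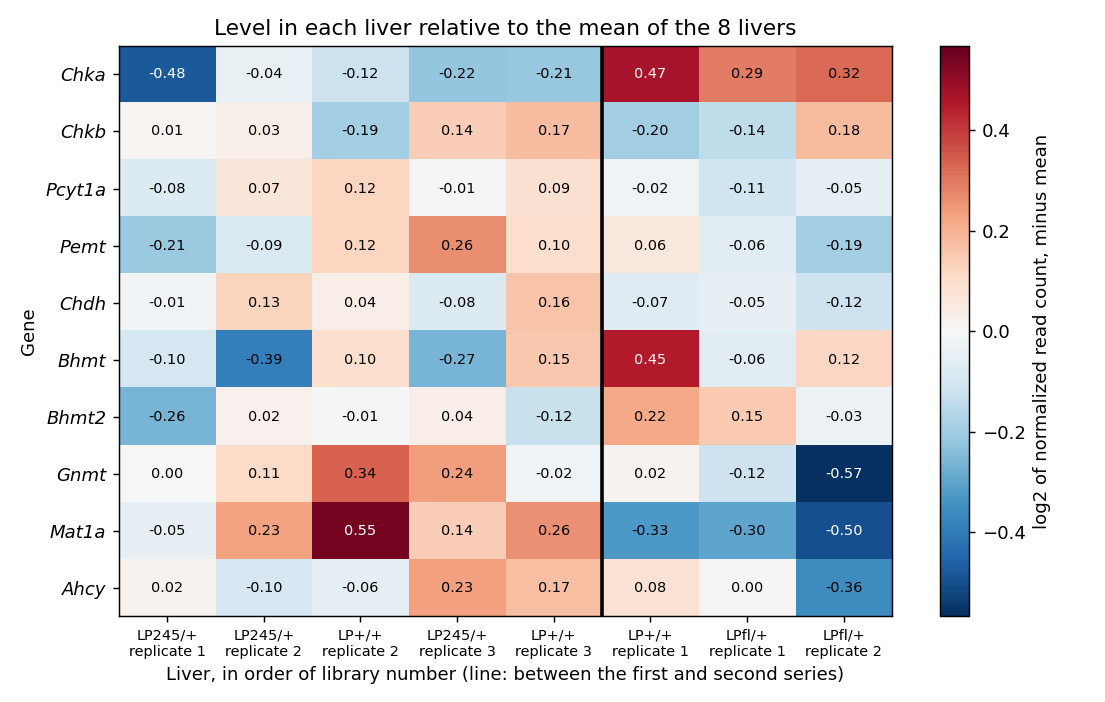
Log2 of the normalized read count of each gene (rows) in each liver (columns, in order of library number) minus the mean of the 8 livers. Colour gives the same value as the printed numbers, and the line separates the series of library numbers. Mat1a is below its mean in the 3 livers of the second series and Chka above it, and LPfl/+ replicate 2 has the lowest value for Chdh, Gnmt, Mat1a and Ahcy.

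The members did not vary together as a single group over the 8 livers. By Pearson's r of log2 levels, described with no test over livers that share their libraries and series, Mat1a went with Pcyt1a (0.83) and Gnmt (0.81) and against Chka (-0.68). Chka went with Bhmt2 (0.81), and Bhmt with Chka (0.51) more than with its neighbour Bhmt2 (0.23). Among 13313 protein-coding genes tested, the levels most like those of Bhmt over the 8 livers were those of Cdyl2 (r = 0.938), Kif14 (0.934) and Fdxr (0.923). For Chka they were Eepd1 (0.986), Fbxo6 (0.981) and Inafm1 (0.981). For Gnmt they included Smim24 (0.954) and Ass1 (0.953), and for Pemt Cd247 (0.975) and Rnf128 (0.973). The highest of so many correlations over 8 livers is high for any gene, and Cd247 had at most 17 normalized read counts.

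The surrounding pathways were described with 9 lists of 102 other genes, of which 97 were tested. In LP245/+ compared with LP+/+, 42 were higher and 55 lower in fitted value, with a median log2 fold change of -0.03. In LPfl/+ compared with LP+/+, 31 were higher and 66 lower, with a median of -0.09. The medians of the 10 members were -0.07 and -0.17, and those of all genes tested were 0.0 and 0.0. Past the cutoff were 0 genes of the lists in either comparison by edgeR, and at an unadjusted p below 0.05 there were 8 and 3 genes, beside 5.93% and 6.89% of all genes.

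Of the genes listed for betaine and sarcosine oxidation, 6 of 7 were lower in fitted value in LP245/+ and 7 of 7 in LPfl/+ than in LP+/+. Their medians were -0.1 and -0.18, and 0 had an unadjusted p below 0.05. By transsulfuration homocysteine leaves the cycle toward cysteine, and the list for it also held genes that use cysteine, such as Gclc. Of this list 10 of 11 were lower in fitted value in either comparison, with medians of -0.12 and -0.18. At an unadjusted p below 0.05 in edgeR there were 1 and 0 of them, beside 5.93% and 6.89% of all genes. Cbs, the first enzyme of transsulfuration, had 15870, 16749 and 15963 normalized read counts in LP+/+ livers, 15628 and 12068 in LPfl/+ livers and 12442, 14521 and 15434 in LP245/+ livers. Both other genotypes lay below LP+/+, as did 5.09% of all genes tested for LP245/+ and 12.4% for LPfl/+. The log2 fold changes of Cbs were -0.19 in LP245/+ and -0.22 in LPfl/+ (adjusted p = 0.847 and 0.796 from edgeR). Gclc, the catalytic subunit for glutathione synthesis, had a log2 fold change of -0.42 in LP245/+ (adjusted p = 0.795 from edgeR).

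Folate genes included the list gene with the smallest p in LP245/+ compared with LP+/+. Gldc, the glycine decarboxylase of mitochondria, had 9997, 10958 and 10731 normalized read counts in LP+/+ livers, 9509 and 7580 in LPfl/+ livers and 5867, 8434 and 6987 in LP245/+ livers. The LP245/+ livers lay below all LP+/+ livers, as they did for 5.09% of all genes tested. The log2 fold change of Gldc was -0.56 (standard error 0.15, adjusted p = 0.795 from edgeR). Slc25a32, the mitochondrial folate carrier, differed between LP245/+ and LP+/+ by a log2 of 0.36 (adjusted p = 0.795 from edgeR) and between LP245/+ and LPfl/+ by 0.47 (adjusted p = 0.394). For this gene all livers of the second series, 460 to 550 normalized read counts, lay below those of the first, 563 to 797. Within the first series its log2 ratio of LP245/+ to LP+/+ was 0.3.

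Shmt1, the cytosolic serine hydroxymethyltransferase, had 5660 and 4590 normalized read counts in LPfl/+, below the 6101 to 6634 of LP+/+ and the 6353 to 6607 of LP245/+ livers. Of all genes tested, 12.4% were wholly lower in LPfl/+ than in LP+/+, and 12.1% wholly higher in LP245/+ than in LPfl/+. For Shmt1, LPfl/+ against LP+/+ gave a log2 fold change of -0.31 (adjusted p = 0.704 from edgeR). Against LPfl/+, LP245/+ livers had for Shmt1 a log2 fold change of 0.34 and for Slc19a1, the reduced folate carrier, one of 0.61, with adjusted p-values of 0.508 and 0.501 from edgeR. Without LPfl/+ replicate 2 these were 0.2 and 0.32, and without LPfl/+ replicate 1 Slc19a1 had 0.98. The Shmt1 value against LP+/+ was -0.19 without LPfl/+ replicate 2 and -0.48 without LPfl/+ replicate 1.

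The median log2 fold changes in LP245/+ and LPfl/+ against LP+/+ were -0.08 and -0.07 over 6 tested genes of choline transport and -0.05 and -0.04 over 9 of phospholipid synthesis. Slc44a1, a choline transporter, had a log2 fold change of -0.03 in either genotype compared with LP+/+. Among enzymes of the CDP routes, Cept1 had log2 fold changes of 0.19 in LP245/+ and 0.01 in LPfl/+ compared with LP+/+. In the same order, Chpt1 had 0.1 and 0.02. Pcyt2, the counterpart of Pcyt1a for ethanolamine, had -0.05 and -0.11. These 3 genes overlapped between genotypes in every comparison.

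Of the genes for breakdown and remodelling of phosphatidylcholine, 10 of 16 were higher in fitted value in LP245/+ and 8 of 16 in LPfl/+ than in LP+/+. Gpcpd1, which splits glycerophosphocholine, had a log2 fold change of 0.45 in LPfl/+ (adjusted p = 0.704 from edgeR). Under alternatives that kept all livers its value lay between 0.25 and 0.51. Pld1, a phospholipase D that releases choline, had one of -0.28 in LP245/+ (adjusted p = 0.805 from edgeR).

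Among small-molecule methyltransferases, which draw on the same S-adenosylmethionine, Gamt, the last enzyme of creatine synthesis, had a log2 fold change of 0.0 in LP245/+ and -0.21 in LPfl/+ compared with LP+/+. Inmt, an amine N-methyltransferase, had 6056, 10246 and 12340 normalized read counts in LP+/+ livers, 11880 and 8783 in LPfl/+ livers and 15356, 13007 and 14847 in LP245/+ livers. The LP245/+ livers were above all 5 others. Of all genes tested, 6.47% lay wholly higher in LP245/+ than in LP+/+ and 12.1% wholly higher than in LPfl/+. The log2 fold change of Inmt in LP245/+ compared with LP+/+ was 0.6 (adjusted p = 0.805 from edgeR). Without LP+/+ replicate 1 it was 0.36. Tpmt, which methylates thiopurines, had one of -0.23 in LP245/+ (adjusted p = 0.795 from edgeR). In LP245/+ compared with LPfl/+, Gatm, the first enzyme of creatine synthesis, had a log2 fold change of 0.48, and Amd1, which takes S-adenosylmethionine into polyamines, one of 0.44 (adjusted p = 0.452 and 0.362 from edgeR). For Gatm it was 0.26 without LPfl/+ replicate 1 and 0.75 without LPfl/+ replicate 2.

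Of the methionine cycle partners, 5 of 7 were higher in fitted value in LP245/+ and 3 of 7 in LPfl/+ than in LP+/+, with medians of 0.03 and 0.0. In LP245/+ compared with LPfl/+, 58 of the 97 list genes were higher and 39 lower in fitted value, with a median of 0.05. Of these, 5 genes were higher and 0 lower at an unadjusted p below 0.05, beside 4.07% and 4.44% of all genes.

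**Figure D4:**
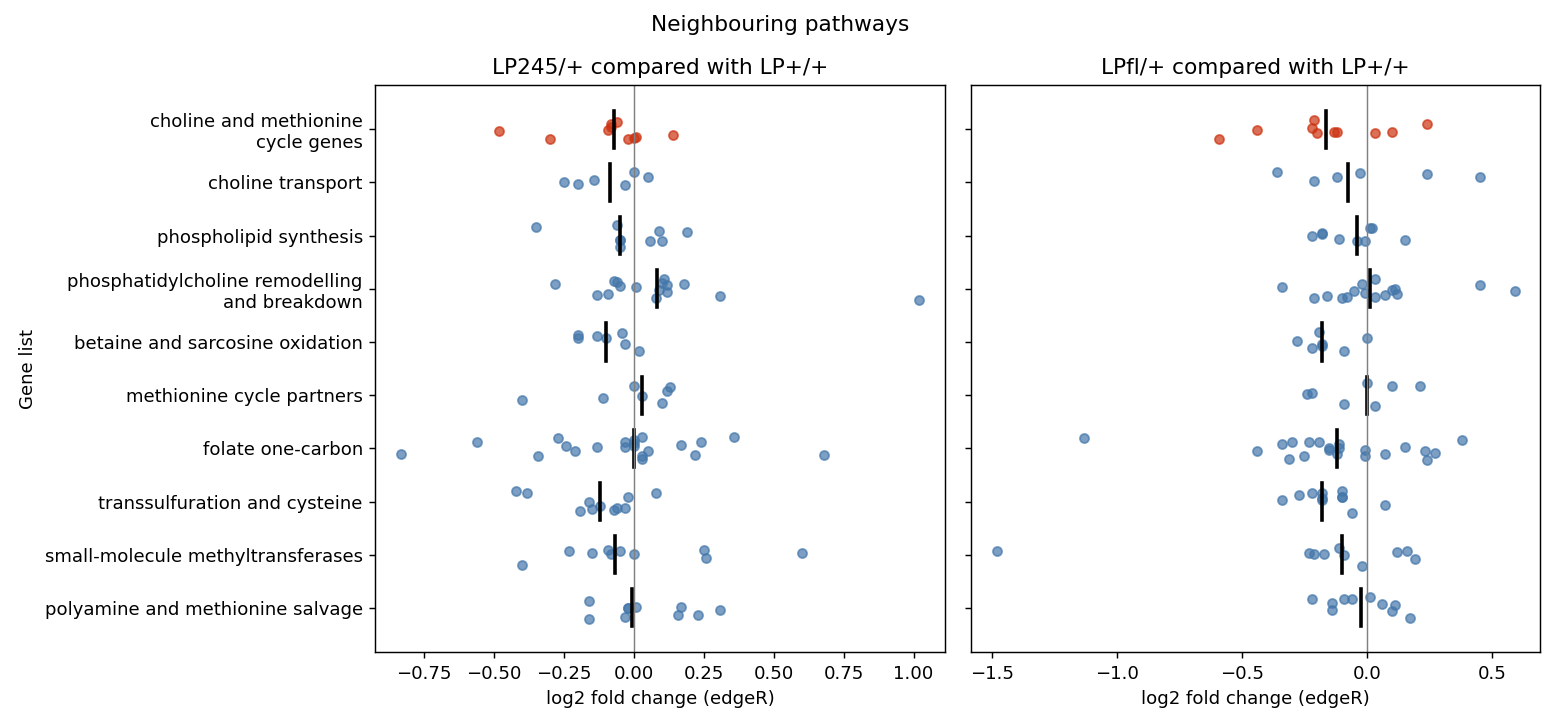
Log2 fold changes from edgeR (horizontal axes) of the tested genes of each list (1 point per gene), with the 10 members in red and the median of each list as a vertical bar. The median of the members is -0.07 in LP245/+ and -0.17 in LPfl/+ compared with LP+/+, and points lie on both sides of 0 in every list except the betaine and sarcosine genes of LPfl/+, of which none lies above 0.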

How the data were processed

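Total RNA of flash-frozen liver was made into stranded libraries and sequenced as 76-bp paired-end reads. The authors aligned the reads to GRCm38 with STAR, summarized them per GENCODE gene with STAR and deposited the counts without normalization. The STAR version, the GENCODE release and the strand counted are not given in the sources used here, so reads of genes that overlap on opposite strands may not be separated. Symbols, exons and positions came from GENCODE M21 and left 259 of 49585 identifiers without a symbol, and 0 columns were unmatched.

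The 8 livers entered 1 fit of edgeR 4.0.16 in R 4.3.3, with TMM scaling, filterByExpr and quasi-likelihood tests on the counts, and p-values were adjusted by Benjamini-Hochberg over the 16496 genes tested. Normalized read counts used size factors of DESeq2 1.42.0, which also gave an alternative test. Log2 levels for correlations used a prior count of 2. Shared stretches of 76 bases were found in the GENCODE transcripts. Figures were drawn with matplotlib 3.10.9.

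All members were named. Of other lists, genes with an unadjusted p below 0.05 were named, at most 3 per list and comparison, besides Mat2a, Cbs, Pcyt2, Cept1, Chpt1, Slc44a1 and Gamt, and the results of 5 genes that this rule names or lists are not reported here. Tat, Cps1, Serpinc1, Hnf4a, Vsig4, Kdr, Cdh5, Mtr, Hba-a1, Hba-a2, Hbb-bt, Alas2 and the sequence-sharing genes were named after their values were seen. Members and lists were chosen with earlier results of these data known. Alternatives were DESeq2, other scaling and filters, only the 2 genotypes compared, each liver left out, no fold cutoff, a block for the replicate number and a covariate for the series.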

Additional observations from a re-analysis of the deposited data

How the results depend on the processing

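In 240 values of the members under alternatives that kept all livers, 13 turned in direction when rounded to 2 decimals, a rule under which Ahcy in LP245/+ compared with LP+/+, at 0.00, could not turn, and 0 members passed the cutoff under any alternative, livers left out included. A covariate for the library series accounted for 11 of the 13, and since only the LP+/+ livers link the series, its values for LP245/+ compared with LPfl/+ rest on LP+/+ replicate 1 against replicates 2 and 3. With it the log2 fold changes in LP245/+ compared with LP+/+ were 0.01 for Bhmt2 and -0.04 for Gnmt. In LPfl/+ compared with LP+/+ they were -0.15 for Chka and -0.15 for Bhmt2. In LP245/+ compared with LPfl/+ they were 0.10 for Chka, -0.16 for Chkb, -0.05 for Pcyt1a, -0.08 for Chdh, 0.05 for Bhmt, 0.16 for Bhmt2 and -0.22 for Mat1a. Chkb in LP245/+ compared with LPfl/+ was -0.04 with library totals. With the replicate number as a block, Chkb was -0.04 in that comparison and Bhmt in LP245/+ compared with LP+/+ was -0.47 (adjusted p = 0.9 from edgeR). Same-numbered livers correlated by between -0.082 and 0.034 in their deviations from the genotype means, so the numbers gave no pairing, and under the block 0 genes of the whole table passed the cutoff in any comparison.

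With each liver left out in turn, 13 of 240 values turned. In LP245/+ compared with LP+/+ the ranges that crossed 0 were -0.24 to 0.01 for Pemt, -0.08 to 0.04 for Chdh, -0.16 to 0.02 for Bhmt2, -0.06 to 0.12 for Gnmt, -0.29 to 0.12 for Mat1a and -0.1 to 0.07 for Ahcy, whose value over all livers was 0.00. For LPfl/+ against LP+/+ they were -0.09 to 0.24 for Chkb and -0.07 to 0.13 for Bhmt2, and for LP245/+ against LPfl/+ -0.11 to 0.21 for Chkb and -0.02 to 0.23 for Pemt. Bhmt in LP245/+ compared with LP+/+ stayed between -0.56 and -0.36, and its adjusted p lay between 0.188, from DESeq2, and 0.998. By slope and R², 1 member, Bhmt, passed; with library totals 0 did, on the averages of the genotypes 2 did, Chkb and Bhmt, and with a liver left out between 1 and 2 did, Pemt being the other without LP245/+ replicate 3. The cause was not tested.

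Over the whole table, 1, 0 and 0 genes passed the cutoff for LP245/+ against LP+/+, LPfl/+ against LP+/+ and LP245/+ against LPfl/+. The numbers were 10, 9 and 54 with DESeq2, 20, 14 and 122 with no filter, and 3, 3 and 10 with the series as a covariate. With only the 2 genotypes compared in the fit they were 1, 0 and 51. With a liver left out they lay between 0 and 5, 0 and 59 and 0 and 47, the last 2 highest without LP+/+ replicate 1. For any difference among the genotypes, 0 genes passed, 77 with DESeq2, 152 with no filter, 8 with the series and up to 73 without LP+/+ replicate 1.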
